A study of Homo sapiens with 18 samples.

Results

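The RNA of 35 human genes of homologous recombination and of the Fanconi anaemia pathway was followed in 3 NK/T cell lymphoma lines given icaritin or its solvent. The genes were taken by NCBI Gene ID, 35 of the 21662 IDs in the deposited tables, and all 35 were listed in each library and had enough counts to be tested among 14396 genes. They fall into 13 genes of core recombination, 11 of the nucleases and of the complex that dissolves joined DNA, and 11 of the Fanconi pathway. The samples were 18 libraries of the lines SNK-10, SNT-8 and SNT-16, whose genotype is labelled WT, in 6 groups of 3: icaritin for 12 h in SNK-10, in SNT-8 and in SNT-16, and DMSO for 12 h in the same lines. Icaritin is a prenylated flavonoid from Epimedium plants and DMSO is its solvent, and the dose is not given in the sources used here. Each is an established line, and the labels do not say whether replicates were separate cultures, so the spread between libraries that the tests rest on may be technical.

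Homologous recombination repairs a broken chromosome by copying the intact sister strand. Nucleases first trim the break to single-stranded DNA, the BRCA1, PALB2 and BRCA2 proteins then prepare that strand for pairing, paralog complexes and RAD54 proteins support the search for and invasion of the matching strand, and joined molecules are finally dissolved or cut. The Fanconi anaemia pathway deals with crosslinks between the DNA strands: FANCM binds the stalled fork, a core complex with the ligase FANCL and the conjugating enzyme UBE2T adds ubiquitin to FANCD2 and FANCI, and the marked pair brings in nucleases and the recombination proteins. Inherited loss of some of these genes causes Fanconi anaemia or a raised risk of breast and ovarian cancer. Many genes of both pathways are expressed most in cells that copy their DNA.

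Library depth was even: expected counts, the estimated fragments per gene, summed to between 9526431 and 10100453. The mitochondrial ribosomal RNA RNR2 took 4.59% to 5.12% of counts after icaritin and 1.5% to 1.55% under DMSO in SNK-10, 2.12% to 2.78% after icaritin and 1.19% to 1.33% under DMSO in SNT-8, and 1.65% to 1.77% after icaritin and 0.83% to 0.89% under DMSO in SNT-16. All 10 NK and T cell markers were above 0 in every library, at unlike levels. CD3E was at 182.88 to 253.85 FPKM, PRF1 at 219.77 to 339.81 FPKM and NKG7 at 229.69 to 451.24 FPKM. GZMB was at 476.52 to 2023.62 FPKM, CD2 at 108.05 to 269.17 FPKM and CD247 at 62.30 to 84.82 FPKM. Lower levels were those of CD7 (4.30 to 17.59 FPKM), NCAM1 (3.04 to 14.13 FPKM) and KLRD1 (4.56 to 11.11 FPKM). GNLY ranged from 0.12 to 101.89 FPKM. Of the B cell markers, MS4A1 had no entry in 15 libraries and CD79B in 13, while CD79A had none in 1 and PAX5 was at 0.14 to 1.71 FPKM. Of the monocyte markers, CD14 had no entry in 11 libraries and S100A8 in 16, while LYZ was at 6.18 to 10.31 FPKM, ITGAM at 3.00 to 5.09 FPKM and CSF1R at 0.32 to 3.36 FPKM. A gene without an entry was taken as 0. The B cell markers summed to 0.400 to 0.640 FPKM with icaritin and 0.300 to 0.490 FPKM with DMSO in SNK-10, 0.920 to 1.12 FPKM with icaritin and 1.70 to 2.11 FPKM with DMSO in SNT-8, and 1.59 to 1.94 FPKM with icaritin and 1.87 to 1.96 FPKM with DMSO in SNT-16. For the monocyte markers the sums were 12.1 to 15.5 FPKM with icaritin and 11.6 to 13.8 FPKM with DMSO in SNK-10, 14.8 to 16.9 FPKM with icaritin and 12.5 to 15.2 FPKM with DMSO in SNT-8, and 13.4 to 15.2 FPKM with icaritin and 12.2 to 14.1 FPKM with DMSO in SNT-16. Their part in the results was not tested. PLK1, the mitotic kinase that the study's title names, fell by 1.23 in SNK-10, 1.78 in SNT-8 and 1.74 in SNT-16 on the log2 scale (SE 0.170, 0.177 and 0.176).

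Most of the 35 genes had more RNA after icaritin than under DMSO in each line, by amounts mostly under 2-fold. A gene is said to rise or fall where the adjusted p of edgeR's quasi-likelihood test, corrected over all 14396 genes, lay under 0.05. In SNK-10, 19 genes rose and 6 fell, against a background of 24.4% of all tested genes higher and 24.0% lower. In SNT-8, 23 rose and 5 fell, where 24.0% of all genes were higher and 25.0% lower. In SNT-16, 24 rose and 1 fell, where 21.2% of all genes were higher and 20.8% lower. The median log2 fold change of the 35 genes was 0.19 in SNK-10, 0.25 in SNT-8 and 0.24 in SNT-16, while that of all tested genes was 0.01, 0.02 and 0.02. On the average of the 3 lines, 24 rose and 6 fell, beside 31.7% and 30.0% of all genes. Rises in all 3 lines were found for 16 of the genes, where 13.0% of all genes rose in all 3, and a fall in all 3 for FANCF alone, where 14.3% of all genes fell. Changes past the threshold and of at least 1.5-fold were fewer: 7 rises and 1 fall in SNK-10, where 15.9% of all genes passed in either direction, 5 rises in SNT-8 (16.1%) and 6 rises in SNT-16 (11.3%). In bulk RNA, fewer cells holding a transcript and less of it per cell cannot be told apart.

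**Figure D1:**
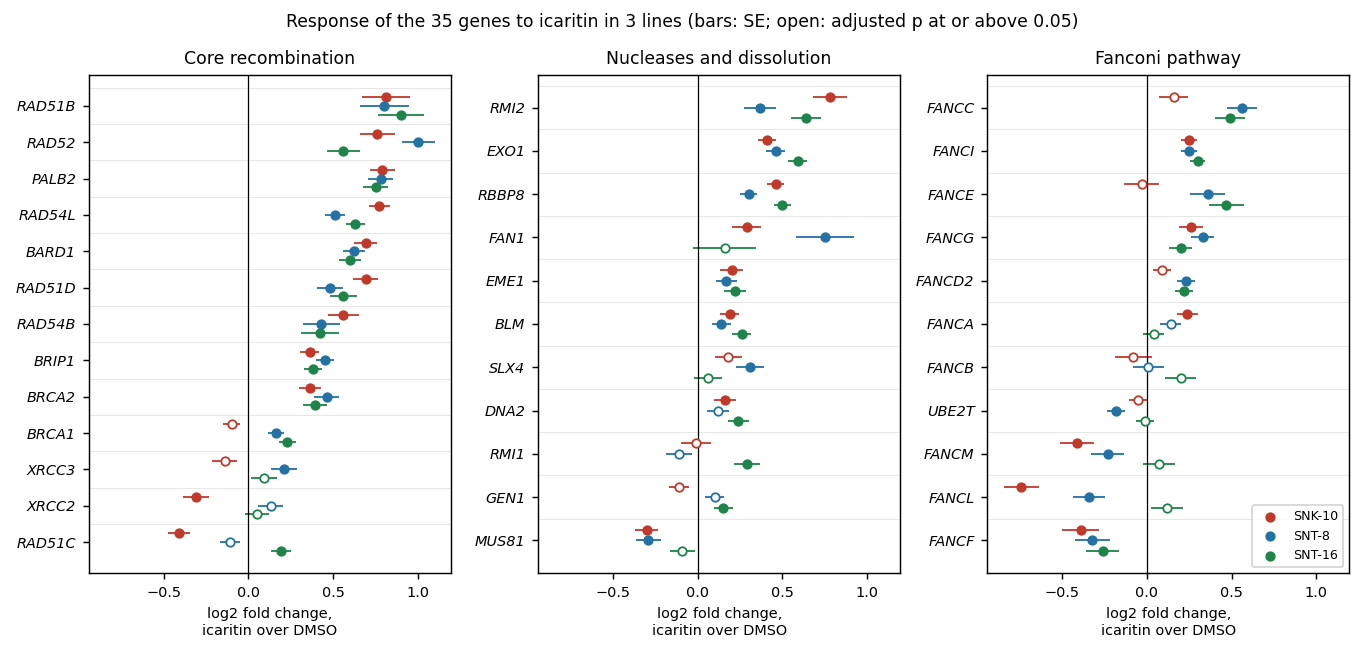
Log2 fold change, icaritin over DMSO, of each of the 35 genes in SNK-10 (red), SNT-8 (blue) and SNT-16 (green), by group and ordered by the mean of the lines. Bars are the standard error and open points have an adjusted p of at least 0.05; most core recombination genes lie right of 0 in all 3 lines, while FANCL and RAD51C lie lowest in SNK-10.

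The summed level of each of the 3 groups was higher in icaritin than in DMSO libraries of the same line, with no overlap. The 13 core genes summed to 780 to 826 CPM (counts scaled to a fixed library total with TMM factors) with icaritin and 662 to 674 CPM with DMSO in SNK-10. The SNT-8 libraries had 812 to 852 CPM with icaritin and 644 to 655 CPM with DMSO, and SNT-16 had 829 to 834 CPM with icaritin and 634 to 646 CPM with DMSO. For the 11 Fanconi genes the sums were 691 to 730 CPM with icaritin and 659 to 677 CPM with DMSO in SNK-10. In SNT-8 the levels were 731 to 765 CPM with icaritin and 679 to 684 CPM with DMSO. SNT-16 had 755 to 765 CPM with icaritin and 659 to 674 CPM with DMSO. Genes of high level weigh most in a sum. In SNK-10, FANCI alone had 225 to 232 CPM with icaritin and 188 to 199 CPM with DMSO. Of the 11 Fanconi genes, 3 rose and 3 fell in that line, with a median log2 fold change of -0.03. The Fanconi sum in SNK-10 therefore does not show a rise shared by the group. The nuclease and dissolution genes summed to 804 to 833 CPM with icaritin and 695 to 715 CPM with DMSO in SNK-10. Their sums were 762 to 806 CPM with icaritin and 673 to 689 CPM with DMSO in SNT-8, and 793 to 815 CPM with icaritin and 632 to 647 CPM with DMSO in SNT-16.

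**Figure D2:**
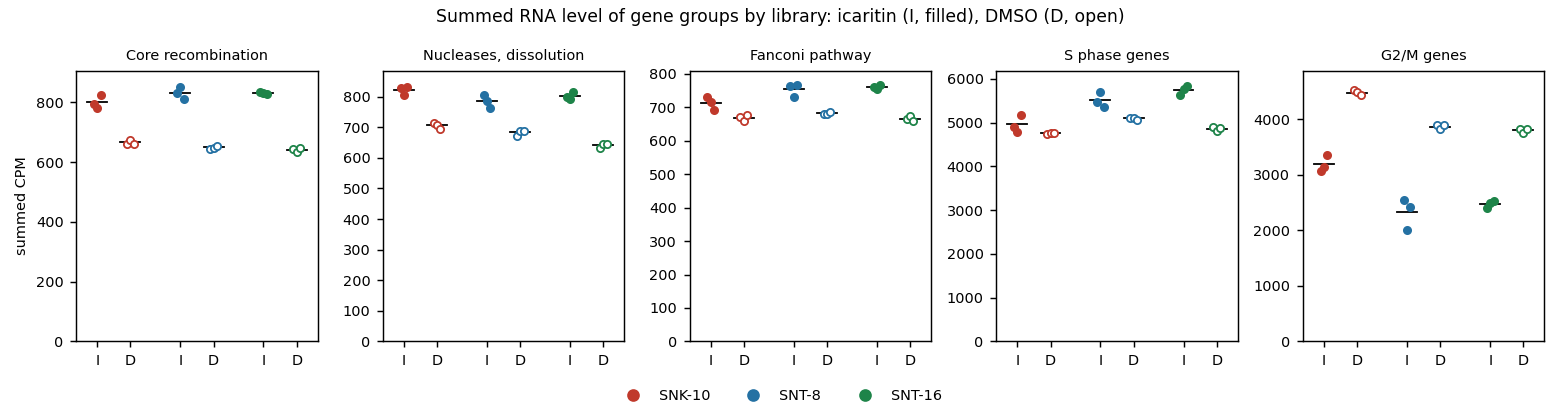
Summed CPM per library of the 3 gene groups and of the S phase and G2/M gene lists, icaritin (I, filled) left of DMSO (D, open) for each line, with the mean of 3 libraries as a line. The core recombination sum is 780 to 826 CPM with icaritin in SNK-10 and 662 to 674 CPM with DMSO, while the G2/M sum is lower with icaritin in every line.

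Promoter sequence was looked at for members that moved the same way in all lines and for one whose response differed by line. RAD54L, a DNA motor that helps strand exchange, is shown because it had the smallest p of the average response among the core genes; FANCF, an adaptor of the Fanconi core complex, because it fell in all 3 lines; and FANCC, another core complex protein, because it rose in the SNT lines and holds a pair of E2F matches. The 250 bases before the start site are given 5′ to 3′ from RefSeq (GRCh38.p14), with capitals on the E2F and CCAAT letters of either strand. They lie at chr1:46247513-46247762 on the plus strand (RAD54L, 1 of 2 listed starts), chr11:22625824-22626073 on the minus strand (FANCF) and chr9:95317710-95317959 on the minus strand (FANCC, 1 of 2 listed starts).
RAD54L: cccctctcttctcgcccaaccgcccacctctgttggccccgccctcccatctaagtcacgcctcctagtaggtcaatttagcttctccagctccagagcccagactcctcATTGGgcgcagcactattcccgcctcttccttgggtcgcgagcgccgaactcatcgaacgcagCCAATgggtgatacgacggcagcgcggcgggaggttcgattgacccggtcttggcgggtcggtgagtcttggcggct
FANCF: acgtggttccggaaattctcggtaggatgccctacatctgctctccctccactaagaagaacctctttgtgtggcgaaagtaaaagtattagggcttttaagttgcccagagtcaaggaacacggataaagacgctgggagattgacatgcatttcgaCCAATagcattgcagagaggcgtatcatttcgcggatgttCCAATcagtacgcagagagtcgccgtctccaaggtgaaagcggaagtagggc
FANCC: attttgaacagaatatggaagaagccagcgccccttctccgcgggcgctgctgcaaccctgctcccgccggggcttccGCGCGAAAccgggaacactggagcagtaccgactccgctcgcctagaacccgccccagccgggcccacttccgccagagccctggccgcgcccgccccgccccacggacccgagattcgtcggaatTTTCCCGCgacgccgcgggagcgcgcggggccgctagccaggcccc

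In RAD54L the CCAAT letters begin 140 bases (opposite strand) and 77 bases before the start site, and in FANCF 92 and 52 bases before it. FANCC holds the E2F letters TTTCGCGC on the opposite strand 172 bases before the start and TTTCCCGC 46 bases before it, and the letters TTTGAA near its first bases, left in lower case. The search covered TTTCCCGC, TTTGGCGC, TTTCGCGC and TTTGCCGC (a set of E2F letters), TTTGAA (the core of the cell cycle homology region, CHR) and CCAAT, each on both strands of windows of 250 bases before to 50 after each start; no matches overlapped in these 3 sequences. RefSeq windows were matched by gene for 31 of the 35 members. E2F letters were in windows of 7 of the 31 (22.6%) and of 3.99% of 27303 genes: EXO1, FANCA, FANCC, FANCD2, GEN1, RMI1 and XRCC2. CHR letters were in 3 of 31 (9.68%) and 18.2% of all genes, and CCAAT in 13 of 31 (41.9%) and 39.7% of all genes. Of the 13 matched members that rose in all 3 lines, 1 held E2F letters, while 6 of the 15 that changed in some lines did. A match is a string of letters in a window and says nothing about binding.

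Of the 13 core recombination genes, 9 rose in all 3 lines (BARD1, PALB2, BRCA2, BRIP1, RAD51B, RAD51D, RAD52, RAD54L and RAD54B), and the median log2 fold change of the 13 was 0.56 in SNK-10, 0.46 in SNT-8 and 0.42 in SNT-16. In SNK-10, 9 rose and 2 fell (RAD51C and XRCC2), while 11 rose in SNT-8 and 11 in SNT-16. Among all tested genes, 24.4% were higher and 24.0% lower in SNK-10, 24.0% and 25.0% in SNT-8, and 21.2% and 20.8% in SNT-16. Rises in all 3 lines were found for 13.0% of all genes. RAD54L had 68.5, 70.1 and 72.5 CPM with icaritin and 41.8, 41.0 and 40.9 CPM with DMSO in SNK-10. SNT-8 had 85.6, 83.4 and 85.2 CPM with icaritin and 61.5, 61.7 and 55.8 CPM with DMSO, and SNT-16 had 86.3, 95.2 and 92.2 CPM with icaritin and 61.3, 57.5 and 57.9 CPM with DMSO. Every icaritin library lay above every DMSO library of its line, and the log2 fold changes were 0.77 ± 0.0621 (SE; adjusted p = 2.23e-13, edgeR), 0.51 ± 0.0571 (1.17e-09) and 0.63 ± 0.0567 (5.65e-12) in SNK-10, SNT-8 and SNT-16. Of the exonic bases of RAD54L, 18% are shared with LRRC41 on the other strand; whether counting used strand is not stated, and LRRC41 itself had log2 fold changes of -0.34, -0.50 and -0.54 in the same lines.

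PALB2, the protein that joins BRCA1 to BRCA2, rose by similar amounts in all lines. It had 77.9, 71.1 and 84.6 CPM with icaritin and 43.3, 48.1 and 43.4 CPM with DMSO in SNK-10. In SNT-8 it had 73.2, 76.6 and 63.5 CPM with icaritin and 43.0, 40.3 and 41.3 CPM with DMSO, and SNT-16 had 66.7, 65.2 and 65.6 CPM with icaritin and 41.3, 34.6 and 41.4 CPM with DMSO. The groups did not overlap in any line, and the log2 fold changes were 0.79 ± 0.0738, 0.78 ± 0.0743 and 0.75 ± 0.0753 (SE; adjusted p from 1.16e-11 to 9.62e-11, edgeR). BARD1, the partner that forms a ubiquitin ligase with BRCA1, had 73.9, 68.7 and 78.8 CPM with icaritin and 43.8, 46.9 and 46.9 CPM with DMSO in SNK-10. It reached 68.8, 76.4 and 71.4 CPM with icaritin against 46.4, 44.5 and 49.7 CPM with DMSO in SNT-8, and 66.3, 66.1 and 66.1 CPM with icaritin against 41.1, 46.5 and 43.6 CPM with DMSO in SNT-16. Its rises of 0.69 ± 0.0656, 0.62 ± 0.0646 and 0.60 ± 0.0656 (log2) again left no overlap between treatments. BRCA1 itself is described with the line differences.

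RAD52, which anneals single strands and can take over part of the mediator role, rose in each line. Its level was 23.5, 24.1 and 20.8 CPM with icaritin and 13.7, 12.8 and 14.0 CPM with DMSO in SNK-10. The SNT-8 libraries had 24.1, 25.7 and 29.4 CPM with icaritin and 13.7, 12.5 and 13.4 CPM with DMSO, and SNT-16 had 21.9, 21.6 and 23.5 CPM with icaritin and 14.7, 14.5 and 16.3 CPM with DMSO. Icaritin libraries lay above DMSO libraries in each line, with log2 fold changes of 0.76 ± 0.101 in SNK-10, 1.00 ± 0.0975 in SNT-8 and 0.56 ± 0.0972 in SNT-16. The test of a difference between lines gave an adjusted p of 0.0658 (edgeR), and 0.0352 without SNT-8 icaritin replicate 1.

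The remaining core genes that rose in all lines were the following. RAD51B, a paralog of low level that works in strand pairing, rose by 0.81, 0.80 and 0.90 (log2) in SNK-10, SNT-8 and SNT-16, with 9.68 to 13.6 CPM in icaritin libraries and 5.31 to 7.45 CPM in DMSO libraries of SNK-10 and SNT-8. RAD51D, its partner paralog, rose by 0.69, 0.48 and 0.56. It shares 423 of its 10190 exonic bases (4.2%) with the RAD51L3-RFFL readthrough on the same strand, so their counts are uncertain. The deposited transcript length of RAD51D was only 2310 to 2403 bases, so the share of the counted transcript may be higher. The readthrough rose by 2.57 in SNK-10 (adjusted p = 0.0276, edgeR). In SNT-8 it had 1.18 and in SNT-16 1.02, neither past the threshold (0.147 and 0.272), and its part was not tested. BRCA2, the mediator of strand pairing, rose by 0.36, 0.46 and 0.39, and BRIP1, the helicase bound to BRCA1, by 0.36, 0.45 and 0.38. RAD54B, the second RAD54-type motor, rose by 0.56, 0.43 and 0.42.

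**Figure D3:**
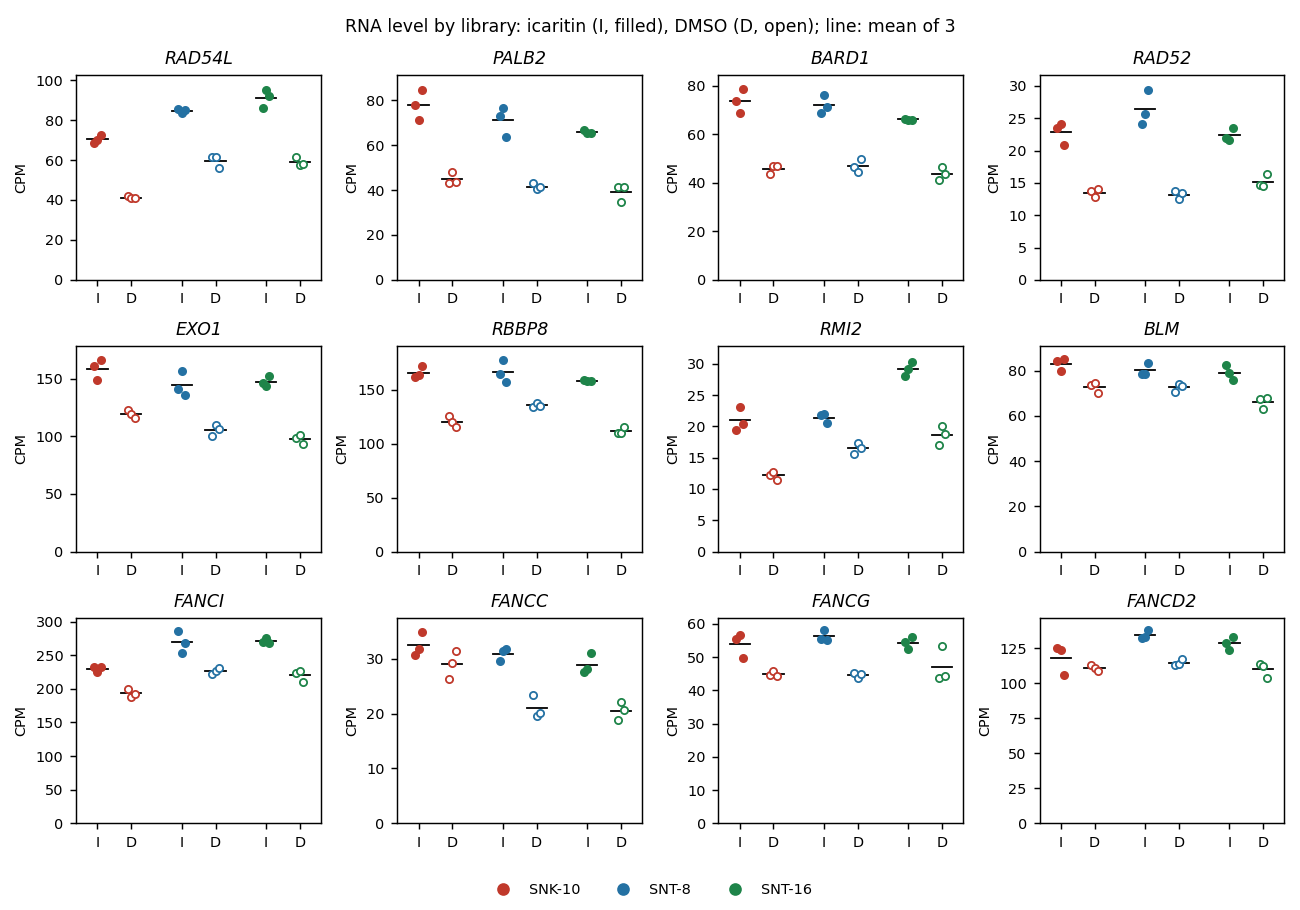
CPM in each library for the 4 genes with the smallest p of the average response in each group (rows: core recombination, nucleases and dissolution, Fanconi pathway), icaritin (I, filled) left of DMSO (D, open), with the mean of 3 as a line. RAD54L, PALB2, BARD1 and RAD52 separate the treatments in all 3 lines, while FANCC and FANCD2 overlap in SNK-10.

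Among the nucleases and dissolution genes, RBBP8, EXO1, BLM, RMI2 and EME1 rose in all 3 lines and MUS81 fell in SNK-10 and SNT-8. In SNK-10, 7 of 11 rose and 1 fell, in SNT-8 also 7 and 1, and in SNT-16 8 rose. The shares of all tested genes were 24.4% higher and 24.0% lower in SNK-10, 24.0% and 25.0% in SNT-8, and 21.2% and 20.8% in SNT-16. For a rise in all 3 lines the share was 13.0%. The median log2 fold change of the 11 was 0.19 in SNK-10, 0.17 in SNT-8 and 0.24 in SNT-16. EXO1, the exonuclease of long-range trimming, had 161, 149 and 166 CPM with icaritin and 123, 119.7 and 116 CPM with DMSO in SNK-10. In SNT-8 the levels were 141, 157 and 136 CPM with icaritin and 99.9, 110.0 and 106 CPM with DMSO, and SNT-16 had 146, 144 and 152 CPM with icaritin and 98.9, 101 and 93.0 CPM with DMSO. Its icaritin libraries lay above its DMSO libraries in each line, with log2 fold changes of 0.41 ± 0.0549, 0.46 ± 0.0553 and 0.59 ± 0.0556 (SE; adjusted p from 1.98e-11 to 4.99e-08, edgeR). RBBP8 (CtIP), which starts trimming together with the MRE11 nuclease, had 162, 164 and 172 CPM with icaritin and 126, 119.8 and 116 CPM with DMSO in SNK-10. In SNT-8 it had 165, 178 and 157 CPM with icaritin against 134, 138 and 135 CPM with DMSO, and in SNT-16 159, 158 and 158 CPM with icaritin against 109.7, 110.0 and 116 CPM with DMSO. The rises were 0.46 ± 0.0502, 0.30 ± 0.0492 and 0.50 ± 0.0501 on the log2 scale, with no overlap between treatments. DNA2, the other long-range nuclease, rose by 0.16 in SNK-10 and 0.24 in SNT-16 and had 0.12 in SNT-8, which passed without SNT-8 icaritin replicate 2 (0.0176). Its SNK-10 call was lost without any 1 of 7 libraries (5 of SNK-10: DMSO replicates 1, 2 and 3, icaritin replicates 1 and 3; 2 of SNT-16: icaritin replicates 2 and 3), with adjusted p between 0.0522 and 0.178, and with DESeq2 (0.0581), library totals (0.12), limma (0.149 and 0.148), no filter (0.0512) or upper-quartile scaling (0.0505). With library totals the SNT-8 value of DNA2 passed (0.0346).

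The dissolution complex of BLM, TOP3A, RMI1 and RMI2 separates crossed DNA molecules without exchange of their arms. TOP3A, its topoisomerase, which is no member of the 35 and was chosen after its values were seen, rose by 0.16 in SNK-10, 0.17 in SNT-8 and 0.18 in SNT-16. RMI2, an OB-fold subunit, had 19.4, 23.1 and 20.4 CPM with icaritin and 12.3, 12.7 and 11.5 CPM with DMSO in SNK-10. For SNT-8 there were 21.8, 21.9 and 20.5 CPM with icaritin and 15.6, 17.4 and 16.5 CPM with DMSO, and SNT-16 had 28.0, 29.2 and 30.3 CPM with icaritin and 17.1, 20 and 18.8 CPM with DMSO. That is a rise of 0.78 ± 0.101, 0.37 ± 0.0940 and 0.64 ± 0.0879 (log2), with treatments apart in each line. BLM, the helicase, rose by 0.19 ± 0.0563 in SNK-10, 0.14 ± 0.0558 in SNT-8 and 0.26 ± 0.0563 in SNT-16. It had 84.3, 79.7 and 85.3 CPM with icaritin and 73.5, 74.3 and 70.0 CPM with DMSO in SNK-10. In SNT-8 it had 78.3, 78.4 and 83.4 CPM with icaritin and 70.6, 74.0 and 73.1 CPM with DMSO, and SNT-16 had 82.6, 78.8 and 75.9 CPM with icaritin and 67.5, 63.1 and 68.0 CPM with DMSO. The SNT-8 rise of BLM had an adjusted p of 0.0335 and missed the threshold without DMSO replicate 1 (0.117), DMSO replicate 3 (0.062) or icaritin replicate 3 (0.139) of SNT-8, and with DESeq2 (0.0778), each line alone (0.0735), no filter (0.107) or a replicate block (0.0535). RMI1, the scaffold of the complex, rose by 0.29 in SNT-16 and had -0.01 in SNK-10 and -0.11 in SNT-8; the SNT-8 value passed as a fall without icaritin replicate 1 of that line (0.0426).

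Other genes of this group cut joined or crosslinked DNA. MUS81, a catalytic subunit, fell by 0.30 ± 0.0679 in SNK-10 and by 0.29 ± 0.0725 in SNT-8 and had -0.09 in SNT-16, while its partner EME1 rose by 0.20, 0.17 and 0.22 (log2). The EME1 calls were lost in SNK-10 without DMSO replicate 2 (adjusted p = 0.191) or icaritin replicate 1 (0.0682) and in SNT-8 without DMSO replicate 2 or 3 or icaritin replicate 1 or 2 (0.052 to 0.118, edgeR). The SNT-8 call of EME1 was also lost with DESeq2 (0.0607) and with no filter (0.0529). CFL1, on the other strand of MUS81 and of far higher level (1006 CPM on average, against 42.7 CPM for MUS81), shares 2.7% of the exonic bases of MUS81 and fell by 0.23 in SNK-10, 0.27 in SNT-8 and 0.29 in SNT-16. LRRC59 on the other strand shares 10.3% of the exonic bases of EME1 and fell by 0.41, 0.35 and 0.24 in the same lines; the part of these overlaps was not tested. SLX4, a scaffold for nucleases, rose by 0.31 in SNT-8 and had 0.18 in SNK-10 and 0.06 in SNT-16; the SNK-10 value passed without SNK-10 DMSO replicate 1 or icaritin replicate 3, or SNT-8 icaritin replicate 1 or 2 (0.00406 to 0.0425), with no filter (0.0465) and with a replicate block (0.0496). GEN1, a resolvase of crossed junctions, rose by 0.15 in SNT-16 and had -0.11 in SNK-10 and 0.10 in SNT-8; the SNT-16 rise was lost without DMSO replicate 1 or icaritin replicate 1 or 2 of that line (0.0822 to 0.196), with DESeq2 (0.0566) and with no filter (0.0948). The SNT-8 value of GEN1 passed without SNT-8 icaritin replicate 2 (0.0288) and with library totals (0.0369), under which the SNK-10 value passed as a fall (0.0474). FAN1, a nuclease recruited to crosslinks, rose by 0.75 ± 0.171 in SNT-8 and 0.29 ± 0.0848 in SNK-10 and had 0.16 ± 0.187 in SNT-16; the SNK-10 call was lost without DMSO replicate 3 (0.0577) and with limma on log2(FPKM + 0.1) (0.116). MTMR10 on the other strand shares 11.7% of the exonic bases of FAN1 and itself rose by 0.30 in SNK-10, 0.58 in SNT-8 and 0.31 in SNT-16, and its part was not tested.

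The median log2 fold change of the 11 Fanconi genes was -0.03 in SNK-10, 0.14 in SNT-8 and 0.20 in SNT-16. In SNK-10, 3 of the 11 rose (FANCA, FANCG and FANCI) and 3 fell (FANCM, FANCF and FANCL), shares near the 24.4% higher and 24.0% lower among all genes. In SNT-8, 5 rose (FANCC, FANCE, FANCG, FANCD2 and FANCI) and 4 fell (FANCM, FANCF, FANCL and UBE2T), beside 24.0% and 25.0% of all genes. In SNT-16 the same 5 as in SNT-8 rose and FANCF fell, beside 21.2% and 20.8%. FANCB, a core complex scaffold, passed the test in no line, with -0.08, 0.01 and 0.20 in SNK-10, SNT-8 and SNT-16, and 0.0466 as adjusted p in SNT-16 without its icaritin replicate 3 and 0.0494 with library totals. FANCI, which is ubiquitinated together with FANCD2, rose in each line. It had 232, 225 and 232 CPM with icaritin and 199, 188 and 193 CPM with DMSO in SNK-10. The SNT-8 libraries had 286, 254 and 268 CPM with icaritin and 222, 226 and 231 CPM with DMSO, and SNT-16 had 269.7, 275 and 268 CPM with icaritin and 224, 226 and 209.5 CPM with DMSO. Its log2 fold changes were 0.25 ± 0.0471, 0.25 ± 0.0460 and 0.30 ± 0.0460 (SE; adjusted p from 9.37e-07 to 2.60e-05, edgeR), and no icaritin library overlapped the DMSO libraries of its line. POLG on the other strand shares 8.3% of the exonic bases of FANCI. FANCD2 had 125, 124 and 106 CPM with icaritin and 113, 111 and 109 CPM with DMSO in SNK-10. In SNT-8 the levels were 132, 133 and 138 CPM with icaritin and 113, 114 and 117 CPM with DMSO, and SNT-16 had 129, 124 and 133 CPM with icaritin and 114, 112 and 104 CPM with DMSO. It rose by 0.23 ± 0.0543 in SNT-8 and 0.22 ± 0.0546 in SNT-16; in SNK-10 the change was 0.09 ± 0.0556 (adjusted p = 0.177), and 0.00943 without icaritin replicate 3, the library at 106 CPM.

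Of the core complex, FANCG, an early binding partner of FANCA, had 55.3, 56.5 and 49.6 CPM with icaritin and 44.6, 45.9 and 44.2 CPM with DMSO in SNK-10. For SNT-8 there were 55.3, 58.1 and 55.2 CPM with icaritin and 45.3, 43.7 and 44.8 CPM with DMSO, and SNT-16 had 54.5, 52.3 and 55.9 CPM with icaritin and 43.8, 53.4 and 44.2 CPM with DMSO. Treatments were apart in SNK-10 and SNT-8 and overlapped in SNT-16 through DMSO replicate 2. The rises were 0.26 ± 0.0706, 0.33 ± 0.0691 and 0.20 ± 0.0687 (log2); that of SNT-16 was lost without DMSO replicate 1 (adjusted p = 0.117), DMSO replicate 3 (0.113) or icaritin replicate 3 (0.0715). FANCC had 29.6, 31.4 and 31.8 CPM with icaritin and 23.4, 19.6 and 20.1 CPM with DMSO in SNT-8, and 27.6, 28.2 and 31.1 CPM with icaritin and 18.9, 22.1 and 20.7 CPM with DMSO in SNT-16. It rose by 0.56 ± 0.0889 in SNT-8 and 0.49 ± 0.0898 in SNT-16. In SNK-10 it had 30.7, 31.9 and 34.9 CPM with icaritin and 26.4, 29.3 and 31.4 CPM with DMSO, an overlap with a change of 0.16 ± 0.0856, which passed as a rise with limma (0.0217 and 0.0185). FANCE, which binds FANCD2, rose by 0.36 in SNT-8 and 0.47 in SNT-16 and had -0.03 in SNK-10. FANCA, the largest core subunit, rose by 0.24 in SNK-10 and had 0.14 in SNT-8 and 0.04 in SNT-16; the SNT-8 value passed without SNK-10 icaritin replicate 3 (0.0338) or SNT-8 icaritin replicate 2 (0.0227), and with library totals, limma or upper-quartile scaling (0.0163 to 0.0311). Of its exonic bases 22.4% are shared with ZNF276 on the other strand, which had -0.62, -0.43 and -0.48 in SNK-10, SNT-8 and SNT-16.

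FANCF was the only member with a fall past the threshold in all 3 lines, and the call in SNT-16 depended on single libraries. FANCF had 16.9, 16.9 and 15.5 CPM with icaritin and 21.9, 20.8 and 21.8 CPM with DMSO in SNK-10. In SNT-8 it had 18.4, 16.4 and 22.9 CPM with icaritin and 25.1, 23.2 and 23.8 CPM with DMSO, and SNT-16 had 21.8, 21.9 and 20.5 CPM with icaritin and 22.3, 25.5 and 29.2 CPM with DMSO. Icaritin libraries lay below DMSO libraries in each line, with changes of -0.39 ± 0.109, -0.32 ± 0.102 and -0.26 ± 0.0990 on the log2 scale (adjusted p = 0.00299, 0.00812 and 0.0307, edgeR). The SNT-16 call was lost without DMSO replicate 2 (0.0604), DMSO replicate 3 (0.271) or icaritin replicate 1 (0.0543), 2 (0.0517) or 3 (0.104), and also with DESeq2, library totals or limma. The SNT-8 call was lost without icaritin replicate 2 (0.0824), after which 3 members in place of 5 fell in SNT-8. FANCM, the DNA motor that anchors the complex, fell by 0.41 in SNK-10 and 0.23 in SNT-8 and had 0.07 in SNT-16; its SNT-8 call had an adjusted p of 0.0464 and was lost without any 1 of 7 libraries (SNK-10 DMSO replicate 2 or 3, SNT-16 DMSO replicate 1, SNT-8 DMSO replicate 2 or 3, SNT-8 icaritin replicate 2 or 3; 0.0514 to 0.191). It was also lost with DESeq2 (0.0816), library totals (0.13), limma (0.504 at both pseudocounts), upper-quartile scaling (0.0895) and a replicate block (0.083). UBE2T fell by 0.18 in SNT-8 and had -0.05 in SNK-10 and -0.01 in SNT-16.

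The response differed between the 3 lines for 8 of the 35 members in an interaction test, where 14.3% of all tested genes differed: BRCA1, RAD51C, XRCC2, RMI1, FANCM, FANCC, FANCE and FANCL. Set against the mean of the SNT lines, the SNK-10 response was lower for 8 members and higher for 0. The 8 were BRCA1, RAD51C, XRCC2, XRCC3, GEN1, FANCC, FANCE and FANCL. Of the 14396 tested genes, 849 were lower and 1184 higher in this comparison, and 14.1% differed in either direction. Between the SNT-8 and SNT-16 responses, 0 members differed by edgeR, DESeq2 or limma, where 0.438% of all genes differed by edgeR after adjustment. An unadjusted edgeR p under 0.05 was found for 10 members. The share of all genes at that unadjusted threshold was not counted, so the 10 cannot be set beside the 0.438%. The interaction count fell to 5 without SNK-10 DMSO replicate 2 or 3, SNT-16 DMSO replicate 1 or 2, or SNT-16 icaritin replicate 3. The SNT-8 against SNT-16 count became 2 without SNK-10 icaritin replicate 3 or SNT-8 icaritin replicate 1, and 1 without SNT-8 icaritin replicate 2.

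RAD51C, a subunit shared by both paralog complexes, fell in one line and rose in another. It had 50.6, 53.6 and 58.4 CPM with icaritin and 72.6, 75.7 and 68.2 CPM with DMSO in SNK-10. The SNT-8 libraries had 79.7, 76.1 and 71.7 CPM with icaritin and 86.5, 79.1 and 80.8 CPM with DMSO, and SNT-16 had 89.4, 95.7 and 93.5 CPM with icaritin and 81.6, 83.6 and 78.9 CPM with DMSO. Icaritin libraries lay below DMSO libraries in SNK-10, overlapped them in SNT-8 and lay above them in SNT-16. RAD51C fell by 0.41 ± 0.0637 (adjusted p = 8.70e-07, edgeR) in SNK-10 and rose by 0.19 ± 0.0582 (0.00720) in SNT-16, with -0.11 ± 0.0595 in SNT-8, and the interaction had an adjusted p of 1.15e-05. XRCC2, a further paralog, fell by 0.31 ± 0.0771 in SNK-10 and had 0.13 ± 0.0711 in SNT-8 and 0.05 ± 0.0709 in SNT-16 (interaction 0.00544); the SNT-8 value passed with library totals (0.0426). XRCC3, which pairs with RAD51C, rose by 0.21 ± 0.0774 in SNT-8 and had -0.14 ± 0.0743 in SNK-10 and 0.09 ± 0.0753 in SNT-16. Its SNT-8 call was lost without DMSO replicate 1 or 2 or icaritin replicate 3 of SNT-8 (0.0511 to 0.125), its SNK-10 value passed as a fall without SNK-10 icaritin replicate 2 (0.0271), and its SNT-8 call also missed the threshold with DESeq2 (0.0506). KLC1 on the other strand shares 45.3% of the exonic bases of XRCC3; it fell by 0.22 in SNK-10 (adjusted p = 0.00101, edgeR) and had 0.03 in SNT-8 and 0.04 in SNT-16, and its part in the XRCC3 values was not tested. The lower response of XRCC3 in SNK-10 than in the SNT lines (-0.29, adjusted p = 0.0303) was lost without SNK-10 DMSO replicate 2 or 3, SNK-10 icaritin replicate 3, SNT-16 icaritin replicate 2 or SNT-8 DMSO replicate 1 (0.0537 to 0.19), and with DESeq2 (0.0653).

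FANCL, the ubiquitin ligase subunit, had the largest fall of the 35 members. It had 16.8, 13.8 and 15 CPM with icaritin and 24.8, 23.8 and 27.6 CPM with DMSO in SNK-10. In SNT-8 the levels were 21.1, 20.6 and 19.1 CPM with icaritin and 25.5, 27.2 and 24.0 CPM with DMSO, and SNT-16 had 24.9, 24.4 and 24.6 CPM with icaritin and 21.0, 20.4 and 26.7 CPM with DMSO. Treatments were apart in SNK-10 and SNT-8 and overlapped in SNT-16. The log2 fold changes were -0.74 ± 0.104 (adjusted p = 1.27e-07, edgeR), -0.34 ± 0.0966 (0.00342) and 0.12 ± 0.0952 (0.352), and the interaction had an adjusted p of 1.04e-04. Without SNT-16 DMSO replicate 3, at 26.7 CPM, the SNT-16 value passed as a rise (0.047). VRK2 on the other strand shares 26.6% of the exonic bases of FANCL and had -0.16, -0.09 and 0.15, none past the threshold.

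BRCA1 itself had 136, 134 and 136 CPM with icaritin and 141, 147 and 146 CPM with DMSO in SNK-10. For SNT-8 there were 154, 153 and 147 CPM with icaritin and 129.7, 137 and 139.9 CPM with DMSO, and SNT-16 had 160.4, 154 and 149 CPM with icaritin and 128, 129 and 137 CPM with DMSO. Icaritin libraries were the lower ones in SNK-10 and the higher ones in both SNT lines. The changes were -0.10 ± 0.0482 (adjusted p = 0.0956, edgeR), 0.16 ± 0.0476 (0.005) and 0.23 ± 0.0475 (9.32e-05), with an interaction p of 0.00117 after adjustment. The SNK-10 value passed as a fall with each line alone (0.0474), library totals (0.0226) and limma (0.00712 and 0.00711), under which BRCA1 too changed in opposite directions. The other interactions were close to the threshold and were lost without any 1 of several libraries: RMI1 (0.0244) without 4, namely SNT-16 DMSO replicate 1 or 2, SNT-16 icaritin replicate 3 or SNT-8 DMSO replicate 3; FANCM (0.0390) without any of 9; FANCE (0.0359) without any of 10; and FANCC (0.0428) without any of 11 of the 18 libraries. GEN1 (-0.23) as the difference of SNK-10 from the SNT lines had an adjusted p of 0.0239 and was lost without SNK-10 DMSO replicate 2, SNK-10 icaritin replicate 1 or SNT-16 DMSO replicate 1 (0.0505 to 0.104).

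**Figure D4:**
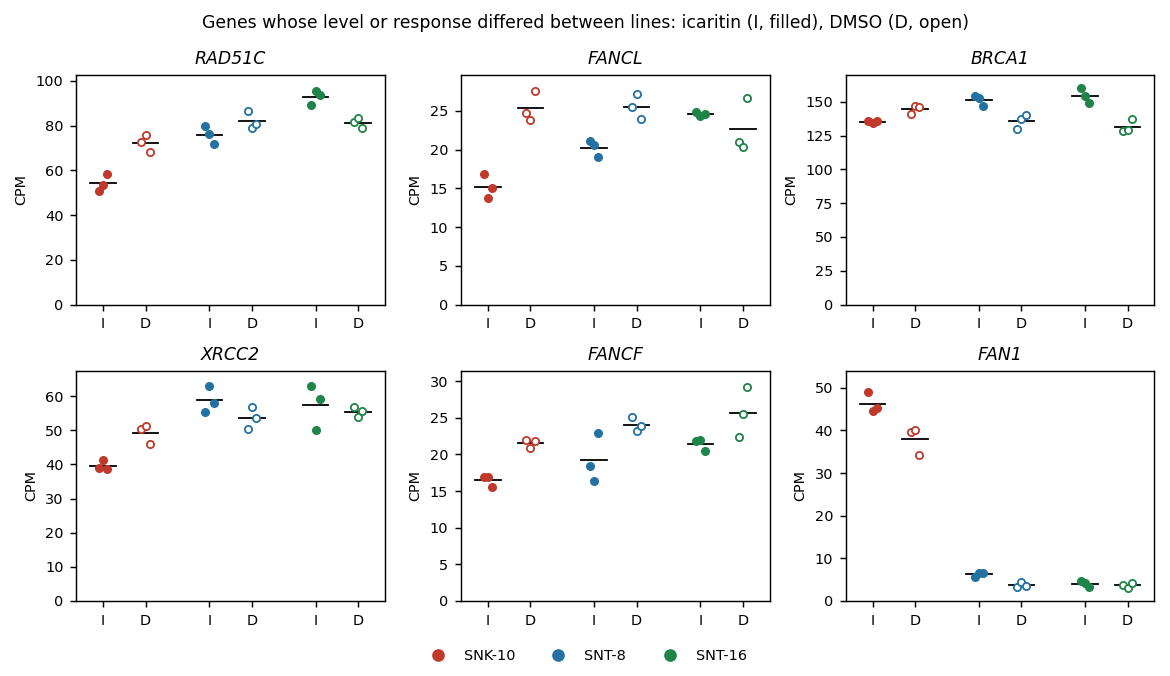
CPM in each library for 6 members whose level under DMSO or response to icaritin differed between lines, icaritin (I, filled) left of DMSO (D, open), with the mean of 3 as a line. RAD51C is lower with icaritin in SNK-10 and higher in SNT-16, and FAN1 is at 34.2 to 49.1 CPM in SNK-10 and at most 6.52 CPM in the other lines.

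Levels without the drug were also compared between lines. Under DMSO, 13 members were higher and 10 lower in SNK-10 than in the mean of the SNT lines. These counts are near the shares of all genes, 31.8% higher and 29.6% lower. Leaving out 1 library gave 10 to 13 higher and 8 to 10 lower. The calls of PALB2, XRCC2, BRCA1 and FANCF were lost in 13, 9, 6 and 6 of 26 alternative runs. Those of FANCA, SLX4 and EME1 were lost in 4, 3 and 1. FAN1 stood out: SNK-10 had 39.6, 40.0 and 34.2 CPM, against 3.34, 4.35 and 3.40 CPM in SNT-8 and 3.67, 2.97 and 4.26 CPM in SNT-16. The difference was 3.37 ± 0.101 on the log2 scale (adjusted p = 6.38e-28, edgeR), and SNK-10 did not overlap the SNT lines, which overlapped each other. RAD54B (0.98 ± 0.0904), BRCA2 (0.63 ± 0.0595) and MUS81 (0.52 ± 0.0586) were next among the higher genes, and FANCB (-0.56 ± 0.0883), RMI1 (-0.55 ± 0.0724), RMI2 (-0.53 ± 0.0908) and RAD54L (-0.52 ± 0.0553) among the lower ones. Between SNT-8 and SNT-16 under DMSO, 1 member differed, RBBP8 (0.28 ± 0.0507, adjusted p = 1.33e-04), where 13.2% of all genes differed. These values share the DMSO libraries with the responses above.

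Per unit of transcript length, UBE2T had the highest level of the 35 under DMSO, at 108 ± 3.32 FPKM in SNK-10, 97.7 ± 1.5 FPKM in SNT-8 and 96.6 ± 2.75 FPKM in SNT-16 (SD, n = 3). RAD51C followed at 55.4 ± 2.41, 63.7 ± 3.72 and 64.7 ± 1.49 FPKM, then FANCI, RBBP8 and EXO1 in the same order in each line. The lowest level was that of RAD51B in SNK-10 (3.77 ± 0.363 FPKM) and of FAN1 in SNT-8 (0.743 ± 0.112 FPKM) and SNT-16 (0.750 ± 0.135 FPKM). BRCA2 was the next lowest in both SNT lines.

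Of 58 other genes of recombination and crosslink repair, 22 rose and 15 fell in SNK-10, 18 rose and 12 fell in SNT-8, and 22 rose and 7 fell in SNT-16; 14 rose and 5 fell in all 3 lines. Among all genes 24.4% were higher and 24.0% lower in SNK-10, 24.0% and 25.0% in SNT-8, 21.2% and 20.8% in SNT-16, and 13.0% and 14.3% in all 3 lines, so the falls were near or under the share of all genes in each line. Without SNT-8 DMSO replicate 3, 7 in place of 12 fell in SNT-8, and 5 with limma at either pseudocount.

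Of the genes of that list changed alike in all lines, those below were among the ones with the largest average changes. Over all tested genes, the median absolute log2 fold change was 0.28 in SNK-10, 0.29 in SNT-8 and 0.24 in SNT-16. REV3L, the catalytic subunit of a polymerase that copies past lesions, rose by 0.52, 0.83 and 0.68 in SNK-10, SNT-8 and SNT-16. HROB, which brings in the MCM8 and MCM9 helicase, rose by 0.72, 0.63 and 0.55, and MCM8 by 0.30, 0.39 and 0.42. RAD51AP1, a cofactor of strand pairing, rose by 0.69, 0.54 and 0.62, ZGRF1, a helicase, by 0.27, 0.59 and 0.59, and DCLRE1A, a crosslink nuclease, by 0.48, 0.31 and 0.34. CENPX, a small partner of FANCM at the fork, fell by 0.55, 0.61 and 0.58.

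Cell cycle lists are given beside the members. Of 20 S phase genes, 7 rose and 8 fell in SNK-10, 9 rose and 2 fell in SNT-8, and 12 rose and 1 fell in SNT-16, where all genes had 24.4% higher and 24.0% lower, 24.0% and 25.0%, and 21.2% and 20.8% in these lines. Of 20 G2/M genes, 15 fell in SNK-10, 18 in SNT-8 and 17 in SNT-16, while 1 rose in SNK-10 and 1 in SNT-16. Their summed level was 3060 to 3359 CPM with icaritin and 4441 to 4518 CPM with DMSO in SNK-10. For SNT-8 there were 2009 to 2546 CPM with icaritin and 3821 to 3893 CPM with DMSO, and SNT-16 had 2396 to 2528 CPM with icaritin and 3748 to 3832 CPM with DMSO. The S phase sum was 4791 to 5178 CPM with icaritin and 4744 to 4771 CPM with DMSO in SNK-10. In SNT-8 it had 5350 to 5686 CPM with icaritin and 5062 to 5112 CPM with DMSO, and SNT-16 had 5621 to 5836 CPM with icaritin and 4817 to 4904 CPM with DMSO. The G2/M sums separated the treatments in each line and the S phase sums did so too, by the least in SNK-10. Their part in the members' results was not tested.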

How the data were processed

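RNA was measured in 18 libraries of SNK-10, SNT-8 and SNT-16. Per the labels' protocols, RNA was extracted with Trizol and 1 ug entered an MGIEasy library kit. The submitters' processing notes name Bowtie2 and HISAT. Genome build, counting tool, strand use and dose are not given there. Per the file headers, the deposited tables hold, per NCBI Gene ID, an expected count (estimated fragments, not scaled) and FPKM, which the authors scaled by transcript length and library; 60.3% to 61.6% of expected counts were whole within 0.005. A gene missing from a table was taken as 0. Symbols were found for 21559 of 21662 IDs.

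Expected counts were rounded and fitted with edgeR 4.0.16 in R 4.3.3 (robust quasi-likelihood, TMM, filterByExpr with minimum count 10 and total 15, 14396 genes, 6 group means, 12 residual degrees of freedom, common coefficient of variation 4.4%). The standard error is the absolute log2 fold change over the square root of F. Tests were two-sided with Benjamini-Hochberg adjustment over all tested genes and a threshold of 0.05. CPM are TMM-scaled. Alternatives were DESeq2 1.42.0, library totals, upper-quartile scaling, no filter, each line alone, a replicate block, limma 3.58.1 on log2(FPKM + 1) and log2(FPKM + 0.1), a 1.5-fold minimum, leaving out each library, and, added after seeing the data, leaving out RNR1 and RNR2. Per-gene values are given in full for the 4 members of each group with the smallest p of the average contrast, any member changed in opposite directions, and the 3 smallest interaction p; other pathway genes are the 8 with the largest average change among those changed alike in all lines, of which 1 is not reported here. FANCF, FAN1, XRCC2 and others outside that rule were chosen after their values were seen. The members and all lists were chosen with earlier results of these data known. Overlapping exons were read from GENCODE v29 and promoter windows from RefSeq (GRCh38.p14). Shares of exonic bases are over the exons of all basic GENCODE transcripts of a gene together, which can exceed the transcript length used for FPKM. Replicates differed by more than sampling noise (chi-square per gene 1.36 to 8.19). The highest values were of pairs with SNT-8 icaritin replicate 2 (5.96 and 8.19) and SNK-10 icaritin replicate 3 (3.4 and 4.13). On simulated data with 14396 genes, 64% of 100 genes changed by 0.5 (log2) and 85% of 100 changed by 1 were recovered for SNK-10. For SNT-8 the shares were 59% and 79%, and for SNT-16 58% and 87%. False calls numbered 4, 11 and 5 in SNK-10, SNT-8 and SNT-16. The simulation changed only these genes in the line tested and gave every gene the coefficient of variation of 4.4%. Far more genes were called in the data, so these shares do not give the recovery there.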

Additional observations from a re-analysis of the deposited data

Results flagged for a closer look

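The results below were picked out because the effect of icaritin differed between the 3 lines by the interaction test (adjusted p, edgeR, n = 3 libraries per group).

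RAD51C fell in SNK-10 and rose in SNT-16 (1.15e-05). FANCL fell by 0.74 in SNK-10 and 0.34 in SNT-8 and had 0.12 in SNT-16 (1.04e-04). BRCA1 rose in both SNT lines and had -0.10 in SNK-10 (0.00117), a value that passed as a fall with each line alone (0.0474), library totals (0.0226) and limma (0.00712 and 0.00711). XRCC2 fell in SNK-10 and had 0.13 in SNT-8 and 0.05 in SNT-16 (0.00544). None of these 4 interactions lost its call in any alternative run.

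RMI1 (0.0244) rose in SNT-16 and had -0.01 in SNK-10 and -0.11 in SNT-8. FANCE (0.0359) and FANCC (0.0428) rose in both SNT lines and had -0.03 and 0.16 in SNK-10. FANCM (0.0390) fell in SNK-10 and SNT-8 and had 0.07 in SNT-16. ZGRF1 (0.0498) rose in each line, by 0.27 in SNK-10 and 0.59 in each SNT line. RMI1 missed the threshold without any 1 of 4 libraries, FANCM of 9, FANCE of 10, FANCC of 11 and ZGRF1 of 12. With DESeq2 the adjusted p was 0.0824 for FANCE, 0.104 for FANCC, 0.078 for FANCM and 0.101 for ZGRF1. With limma at the 2 pseudocounts it was 0.077 and 0.0681 for RMI1, 0.197 and 0.178 for FANCM, 0.0812 and 0.0789 for FANCC, and 0.073 and 0.0631 for ZGRF1. With the replicate block it was 0.0993 for FANCM, 0.0554 for FANCC and 0.0515 for ZGRF1; FANCC was also lost with no filter (0.0582) and ZGRF1 without RNR1 and RNR2 (0.0618).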

How the results depend on the processing

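Of 336 results on single genes, 67 crossed the threshold under at least 1 alternative. The interaction tests among them have no sign; of the 288 results with one, 55 crossed the threshold and 0 reversed past it. DESeq2, library totals and limma at both pseudocounts each left 0 members falling in SNT-16 and 0 in all 3 lines; DESeq2 also gave 5 members whose response differed between lines, limma 5 other pathway genes falling in SNT-8, no filter 1 member whose response differed between SNT-8 and SNT-16, and each line alone 2 S phase genes falling in SNT-16. A 1.5-fold minimum left 7 members rising and 1 falling in SNK-10, 5 and 0 in SNT-8, 6 and 0 in SNT-16, 6 and 0 on average, and 3 and 0 in all 3 lines; 2 rising and 2 falling other pathway genes in SNK-10, 4 and 1 in SNT-8, and 4 and 0 in SNT-16; 0 rising S phase genes in each line, with 0, 1 and 0 falling in SNK-10, SNT-8 and SNT-16; 0 rising G2/M genes in SNK-10 and SNT-16, with 7 and 9 falling; 1 member with a different SNK-10 response; and 3 members higher and 0 lower in SNK-10 under DMSO. Leaving out RNR1 and RNR2 changed 4 single-gene calls: XRCC2 under DMSO (0.0574), ZGRF1 (0.0618) and NBN in SNT-16 (0.0529) were lost, and the RAD54L response of SNK-10 against the SNT lines passed (0.0497).

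Leaving out 1 library gave 3 to 6 members falling in SNT-8, 0 to 1 falling in SNT-16 and in all 3 lines, 5 to 10 with an interaction, 0 to 2 differing between SNT-8 and SNT-16, 7 to 13 other pathway genes falling in SNT-8, 0 to 1 S phase genes falling in SNT-16, and 1 to 2 G2/M genes rising in SNK-10 and 0 to 1 in SNT-16. Members rising ranged from 17 to 20 in SNK-10, 21 to 25 in SNT-8 and 22 to 24 in SNT-16. The causes were not tested.

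Over all tested genes, same-numbered libraries did not deviate together (correlations of -0.058 to 0.055, 0 over 0.1). Such a check can miss an effect shared by few genes, so it cannot decide whether the numbers mark pairs. A fit with the replicate block moved no count by over 1.5 times. It lost 6 single-gene calls, among them BLM in SNT-8 (0.0535), and gained 1, SLX4 in SNK-10 (0.0496). FAN1 in the SNT lines and RAD51B, which are of low level, had the widest errors of the responses among the members. The part of depth in this was not tested.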

Other observations

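The genes below belong to the list of other pathway genes and were chosen after their values were seen. In the MRE11, RAD50 and NBN complex, which binds broken ends, MRE11 rose by 0.27 ± 0.0660 in SNK-10, 0.23 ± 0.0659 in SNT-8 and 0.26 ± 0.0657 in SNT-16 (log2, SE). RAD50 fell by 0.13 ± 0.0499, 0.32 ± 0.0489 and 0.19 ± 0.0486 in the same lines, and NBN rose by 0.27 ± 0.0591 in SNK-10 and 0.15 ± 0.0573 in SNT-16, with 0.05 ± 0.0582 in SNT-8. The RAD50 fall in SNK-10 (adjusted p = 0.0265, edgeR) was lost without DMSO replicate 2 or icaritin replicate 1 or 2 of SNK-10 (0.0677 to 0.17), and the NBN rise in SNT-16 (0.0349) without any SNT-16 library other than icaritin replicate 2 (0.0615 to 0.167), with DESeq2 (0.0638), with no filter (0.0814) and without RNR1 and RNR2 (0.0529). RAD50 had 185, 194 and 205 CPM with icaritin and 207, 224 and 208 CPM with DMSO in SNK-10, and 214, 195 and 206 CPM with icaritin and 246, 254 and 269 CPM with DMSO in SNT-8.

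ERCC1 and ERCC4, which form a nuclease used in crosslink repair, fell in each line by CPM. ERCC1 had -0.35 ± 0.0565, -0.28 ± 0.0559 and -0.33 ± 0.0567, and ERCC4 -0.36 ± 0.0826, -0.24 ± 0.0795 and -0.26 ± 0.0776 in SNK-10, SNT-8 and SNT-16. The ERCC1 falls were not seen with limma on log2(FPKM + 1), with -0.12, -0.00 and -0.06 in these lines (adjusted p = 0.0624, 0.964 and 0.373). The ERCC4 fall in SNT-8 was lost without SNT-8 DMSO replicate 3 (0.0911) and with limma at either pseudocount (0.0861 and 0.0715).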
